A study of Homo sapiens with 2 samples.

Results

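The promoters described here are rich in CpG dinucleotides and yet carried no peak of accessible chromatin in B2B cells. They were selected on the peaks themselves: a protein-coding gene was taken where 80 or more CpG lay within 500 bp to either side of the start of its canonical transcript (TSS) and no peak of either replicate overlapped the 1 kb to either side. Of 19970 protein-coding promoters on chromosomes 1 to 22 and X, 7224 were CpG-rich, and 1300 of these had no peak. B2B is the BEAS-2B line of bronchial epithelial cells, which are not cancerous and were immortalized with SV40. The line was grown without treatment, is wild type and was assayed as 2 biological replicates. In ATAC-seq, the Tn5 transposase cuts open chromatin and leaves adapters there, and a peak is a stretch with more fragments than its local background. No other condition was analysed here, so the replicates form 1 group and no test between groups was possible.

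Most vertebrate DNA is methylated at CpG and has lost much of that dinucleotide, while the stretches that stay unmethylated in the germline keep it and form CpG islands. Such islands surround the start sites of most genes that every cell uses, and also those of many genes that steer development. At the first kind, sequence-specific activators and the transcription machinery hold nucleosomes away. At the second kind, Polycomb complexes keep the gene silent in cells that do not need it, and in cultured and cancerous cells DNA methylation can take over that role. ATAC-seq reports the openness of the DNA and reads neither Polycomb marks nor methylation, and neither was measured in the files used here.

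The sequences below show what the members looked like at the start site. Each run is 300 bases of hg38, from 250 bases before the TSS through the first 50 transcribed bases, written 5′ to 3′ on the strand of the gene with every CpG in capitals. SALL3, a zinc finger factor of limb and neural development, holds 59 CpG in this stretch (chr18:78979568-78979867, plus strand), and its 1 kb window has 2 near-copies elsewhere in hg38. HOXA13, which patterns the distal limb, holds 44 (chr7:27200042-27200341, minus strand). TDRD10, a tudor domain gene placed in the germline list, holds 45 (chr1:154501969-154502268, plus strand). MRPL38, a protein of the mitochondrial ribosome, is shown for contrast because it was 1 of the 2 housekeeping promoters with the strongest peaks (fold enrichments of 15.1 and 15.5), and it holds 36 (chr17:75904835-75905134, minus strand).
SALL3: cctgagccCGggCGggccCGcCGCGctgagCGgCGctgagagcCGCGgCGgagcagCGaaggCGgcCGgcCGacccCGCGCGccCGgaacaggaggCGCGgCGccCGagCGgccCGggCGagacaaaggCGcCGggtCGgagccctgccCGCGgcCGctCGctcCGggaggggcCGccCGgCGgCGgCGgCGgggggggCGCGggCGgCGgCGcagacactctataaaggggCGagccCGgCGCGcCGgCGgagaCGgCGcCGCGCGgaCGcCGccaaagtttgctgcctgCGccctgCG
HOXA13: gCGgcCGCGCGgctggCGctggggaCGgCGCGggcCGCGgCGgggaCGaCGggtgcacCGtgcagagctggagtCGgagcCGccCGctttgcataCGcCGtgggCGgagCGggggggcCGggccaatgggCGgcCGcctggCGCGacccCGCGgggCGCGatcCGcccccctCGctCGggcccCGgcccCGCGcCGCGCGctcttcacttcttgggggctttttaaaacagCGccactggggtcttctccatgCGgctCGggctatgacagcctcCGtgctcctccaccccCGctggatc
TDRD10: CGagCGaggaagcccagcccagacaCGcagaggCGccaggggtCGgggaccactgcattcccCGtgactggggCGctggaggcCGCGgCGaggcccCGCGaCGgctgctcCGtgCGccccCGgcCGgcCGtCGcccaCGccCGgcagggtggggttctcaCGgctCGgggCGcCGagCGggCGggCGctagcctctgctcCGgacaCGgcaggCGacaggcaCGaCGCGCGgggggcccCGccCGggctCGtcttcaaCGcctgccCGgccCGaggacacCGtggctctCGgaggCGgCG
MRPL38, with a peak: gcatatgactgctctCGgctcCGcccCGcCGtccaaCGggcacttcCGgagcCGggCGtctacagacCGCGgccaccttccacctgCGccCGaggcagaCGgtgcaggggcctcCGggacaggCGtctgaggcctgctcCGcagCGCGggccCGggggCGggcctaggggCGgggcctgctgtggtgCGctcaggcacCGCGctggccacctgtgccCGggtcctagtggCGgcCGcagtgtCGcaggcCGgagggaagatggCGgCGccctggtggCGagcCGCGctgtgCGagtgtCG

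The runs are examples, and nothing is read from how they differ. MRPL38 held the letters of the ETS, YY1 and SP1 and KLF motifs in this stretch, while PCNA, the other housekeeping promoter of that pair, with fold enrichments of 16.6 and 15.8, held none of the motifs searched. The SP1 and KLF letters were also in the same stretch of the members HCN2 and TDRD9.

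No peak was found at 18.0% of the CpG-rich promoters, against 40.9% of all protein-coding promoters under the same peak rule. A peak in both replicates was found at 5362 CpG-rich promoters and a peak in 1 replicate at 562. Replicate 1 alone left 1777 CpG-rich promoters without a peak (24.6%), and replicate 2 alone left 1385 (19.2%), which gives 21.9% ± 3.84 (SD, n = 2). The difference came mostly from replicate 2, which had a peak at 477 of the promoters that replicate 1 lacked, whereas the opposite was seen at 85. Replicate 2 also had more peaks on the main chromosomes, 36162 against 28735. All of these shares were fixed by the selection and describe it.

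The lists give no read totals, so depth itself was not known, and the level of the weakest peaks was read instead. Fold enrichment and p-value together fix how many fragments cover a summit, and the weakest peak in the lists had 16 fragments in replicate 1 and 13 in replicate 2. A promoter without a peak therefore lay under that level or failed the peak caller's local test, and accessibility below that level was not detectable at this depth. Where CpG-rich promoters had a peak in both replicates, the median summit held 48 fragments in replicate 1 and 47 in replicate 2. Their median fold enrichment over the local background was 8.14 and 9.42. Peaks seen in 1 replicate were weaker, with medians of 4.16 for the 85 of replicate 1 and 4.98 for the 477 of replicate 2.

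Promoters without a peak outnumbered those with the weakest peaks. The class without a peak pools every level that the peak caller did not pass, and the classes of fragments differ in width. These counts therefore do not tell whether promoters without a peak form a separate group. In replicate 1, 1777 CpG-rich promoters had no peak, 35 had one of 16 to 19 fragments, 367 had one of 20 to 24, and 1528 fell in the fullest class of 40 to 59. Replicate 2 had 1385 with no peak, 19 at 13 to 15 fragments, 262 at 16 to 19 and 1521 at 40 to 59. The same order was seen at divergent promoters, where another protein-coding gene starts on the opposite strand. Of 778 such promoters, 51 had no peak in replicate 2, while 4 had a peak of 13 to 15 fragments and 21 one of 16 to 19.

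**Figure D1:**
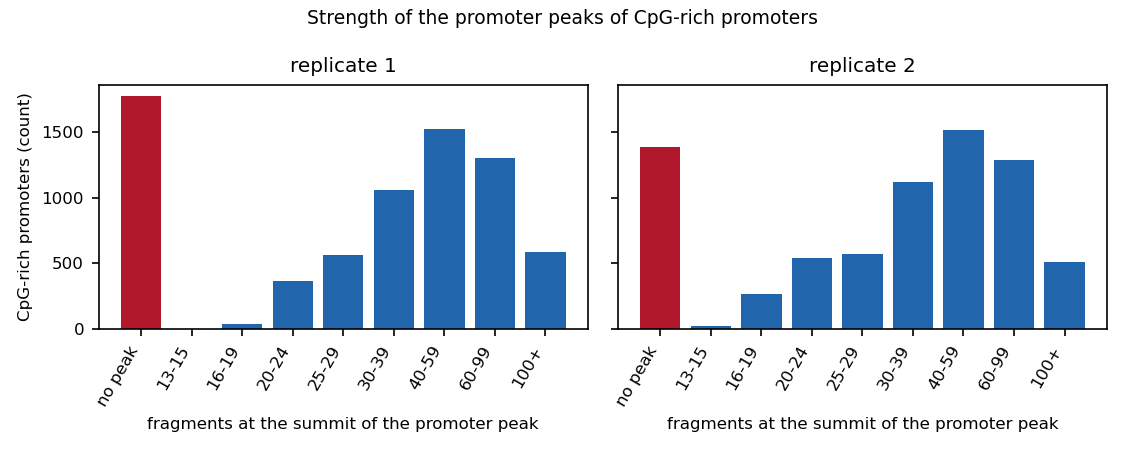
Number of CpG-rich promoters (y axis) by the number of fragments at the summit of their promoter peak (x axis, classes of unequal width), for each replicate, with promoters that had no peak in that replicate in red. The red bars pool every level that the peak caller did not pass. They stand at 1777 and 1385, whereas peaks of 16 to 19 fragments number 35 in replicate 1 and 262 in replicate 2.

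No gap in the values set the members apart at either limit. The 5 members nearest to a peak were CITED1, TFAP4, RPL7A, TGIF2-RAB5IF and SULF2, with a peak of replicate 2 at 1012 to 1043 bp from the TSS. Just inside the 1 kb limit, and so not members, were ADGRL1, ZBTB16, GPR137, MEST and BCL3. The nearest peak edge lay at 991 bp for ADGRL1 and at 948 bp for BCL3. At the CpG limit, 28 members had exactly 80 CpG, among them ATP2C2, CALY, CELF4, DES and DNAH9. A further 46 promoters without a peak had 79 CpG and were left out, such as AKR7L, ANKLE1, APC2, ARPIN and ARSD.

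Developmental transcription factors were without a peak more often than not. Of 204 such promoters, 115 had no peak, which is 56.4% (95% Wilson interval 49.5 to 63.0) beside 18.0% over all CpG-rich promoters and 15.6% over the 6162 in none of the lists. Replicate 1 alone gave 59.8% and replicate 2 alone 57.4%. A peak in 1 replicate was found at 9 of the 204 and a peak in both at 80. Median GC was 69.4% for the 115 and 71.1% for the 80 with a peak in both, so here the promoters without a peak were not the GC-richer ones. Among factor promoters with GC under 70%, 63 of 100 had no peak, and among those with 70% or more, 52 of 104.

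The HOX genes, which set position along the body axis, had no peak at any of their 16 CpG-rich promoters (lower interval bound 80.6%). HOXA4, HOXA5, HOXA7, HOXA9, HOXA10 and HOXA13 formed an unbroken run of 69.3 kb on chromosome 7 with 0 peaks in either replicate. HOXD13, HOXD12, HOXD11, HOXD9, HOXD8 and HOXD1 formed another of 95.9 kb on chromosome 2 with 1 peak in each replicate. From the HOXA13 start, the nearest peak was 103 kb away in both lists. The HOX promoters of the highest CpG count were HOXA13 with 131, HOXD11 with 123 and HOXD1 with 113.

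Other homeobox genes had no peak at 42 of 68 promoters. The most CpG-rich were NKX6-2 with 159 CpG, EN2 with 154, HMX1 with 150, NKX1-1 with 149, LMX1B with 144 and GSC2 with 140, all of them factors that specify neurons or early body regions. T-box factors had none at 6 of 8, led by TBX1 with 135 CpG, a factor of the pharyngeal arches. The other members of that list were MGA, TBXT, TBX21, TBX4 and TBX20. Basic helix-loop-helix factors had none at 17 of 28, with BHLHE23, TCF15, ASCL2, SIM2, NPAS2 and PTF1A at the top. SOX factors had none at 6 of 10, namely SOX8, SOX1, SOX18, SOX11, SOX17 and SOX3.

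Forkhead and zinc finger factors had lower shares. FOX genes had no peak at 12 of 31 promoters, with FOXI3, FOXF2, FOXF1, FOXL3, FOXI2 and FOXQ1 the richest in CpG. The list of GATA and other zinc finger factors had no peak at 16 of 43, led by SALL3 with 171 CpG, EBF4 with 161 and INSM1 with 140. Their Wilson intervals, 23.7 to 56.2% for FOX and 24.4 to 52.1% for the zinc finger factors, lay above 18.0% but overlapped those of all other families except HOX. Differences between the families were not tested.

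Distances to the nearest peak varied among these factors and, for some, between the replicates. SOX11, a factor of neural progenitors, had its nearest peak 2015 kb away in replicate 1 but 63.8 kb away in replicate 2. TBX1 had its nearest peak at 94.0 kb and 29.9 kb. EN2, a factor of the midbrain and hindbrain, had it at 77.8 kb and 113 kb. Over the whole class, the median distance was 59.8 kb in replicate 1 and 43.6 kb in replicate 2, against 38.4 kb and 30.5 kb for members in none of the lists.

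Signalling genes of development followed at a lower share. Of 99 CpG-rich promoters of ligands and their receptors, 40 had no peak, or 40.4% (31.3 to 50.3). The most CpG-rich were INHBB, a subunit of activin B, with 154 CpG, EFNA2, an ephrin, with 153, BMP8A with 149, GDF1 with 143, and the receptors EPHB2 and RET with 136 each. RET, the receptor of the GDNF family, had no peak at its canonical start but had a peak at another annotated start 27.7 kb away. That peak had a fold enrichment of 8.32 in replicate 1 and 10.6 in replicate 2. INHBB and EPHB2 had a peak of replicate 2 at 1.52 kb and 1.89 kb, just outside the window, whereas replicate 1 had none within 21.6 kb and 28.9 kb.

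Neuronal channels, receptors and synapse genes had 100 members, next to the 115 of all developmental factor families. These came from 160 CpG-rich promoters, 62.5% (54.8 to 69.6), with 71.9% in replicate 1 and 65.6% in replicate 2. CACNA1H, a T-type calcium channel, with 166 CpG led the list, followed by HCN2, a pacemaker channel, with 160, KCNJ4, an inward rectifier of potassium, with 159, and DLGAP2, a postsynaptic scaffold, with 156. GABBR2, a subunit of the GABA-B receptor, had 149 and CACNA1C, an L-type calcium channel, 146. The share was 65.5% for promoters under 70% GC and 60.8% for those at or above. CACNA1C had a peak at another of its starts, 588 kb into the gene, with fold enrichments of 9.36 and 15.0. HCN2 and GABBR2 had a peak of replicate 2 at 1.44 kb and 1.39 kb. Clustered protocadherins, which mark single neurons, had 0 CpG-rich promoters of 53 under the limit used here and so no member.

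**Figure D2:**
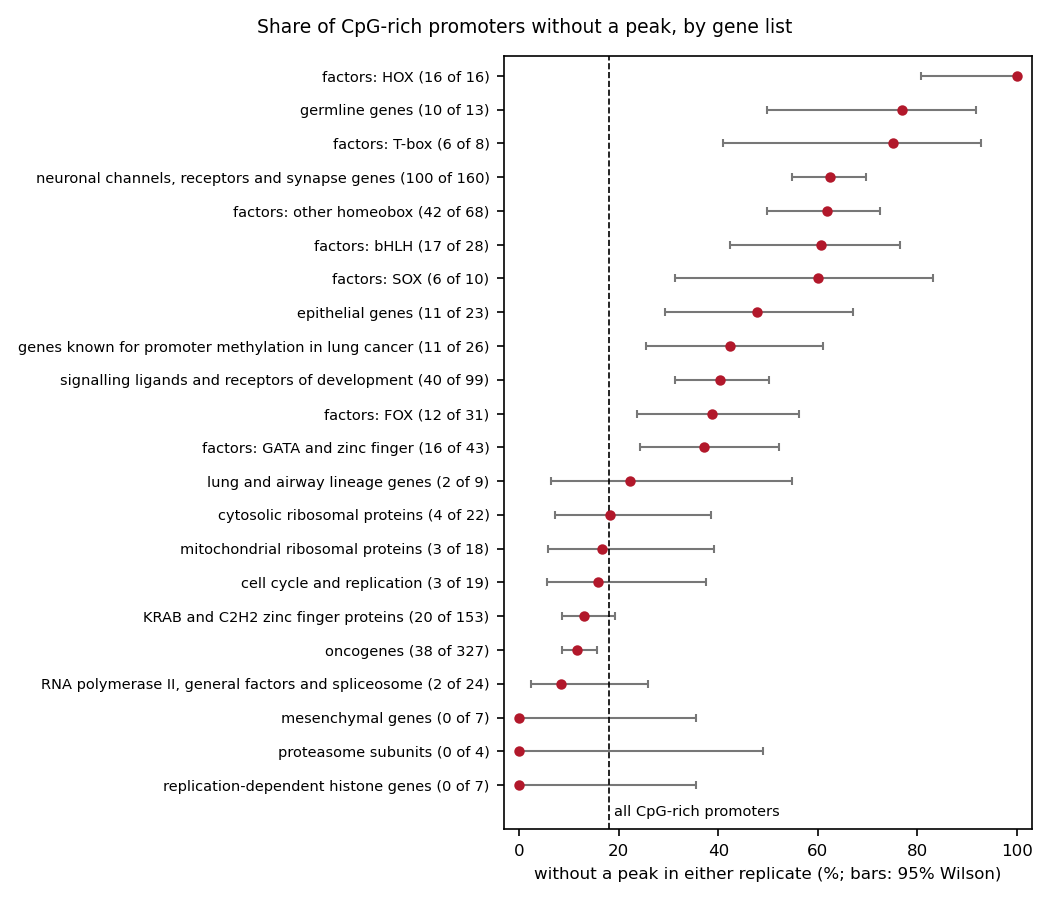
Share of CpG-rich promoters without a peak in either replicate (x axis, percent) for each gene list (y axis, with the number without a peak of the number CpG-rich). Points are shares, bars are 95% Wilson intervals and the dashed line is the 18.0% over all CpG-rich promoters, below the intervals of the HOX, germline, neuronal, homeobox and epithelial lists, among others.

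Epithelial genes were split nearly evenly. Of 23 CpG-rich promoters in the list, 11 had no peak (47.8%, 29.2 to 67.0), 11 had a peak in both replicates and PRRG4 had 1 of 18 fragments in replicate 2. The members were OVOL1, MAL2, EPCAM, ESRP2, ST14, SPINT2, CLDN3, SPINT1, PPL, MARVELD3 and KRT7. The open ones included GRHL1, DSP, LLGL2, CDS1, OCLN, ITGB4, CGN, LAMA3, JUP and MARVELD2. Median GC was 70.5% in the members and 69.5% in the open promoters, and median CpG count 99 and 96.

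EPCAM, an epithelial cell adhesion molecule, had its nearest peak at 33.6 kb in replicate 1 and 33.5 kb in replicate 2. CLDN3, a tight junction protein, had it at 31.2 kb and 31.1 kb. The protease ST14 and both of its inhibitors, SPINT1 and SPINT2, were without a promoter peak, at 6.71 kb, 21.9 kb and 36.1 kb from the nearest peak of replicate 1. SPINT2 had a peak at another start, 25.6 kb away, in replicate 2 alone, with a fold enrichment of 7.70.

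Some of the epithelial members had open chromatin close by. ESRP2, a splicing factor of epithelial cells, had a peak in both replicates 1.24 kb and 1.16 kb from its canonical TSS. An annotated start of the gene lies there, 1.94 kb from the canonical one, with fold enrichments of 9.36 and 10.6. KRT7, a keratin of simple epithelia, had peaks at other starts with fold enrichments of 3.64 and 7.70, 11.1 kb and 9.84 kb away. OVOL1, a zinc finger factor of epithelial identity, had its nearest peak at 66.2 kb in replicate 1 and 5.99 kb in replicate 2.

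Among the open promoters of the list, strength varied. JUP, or plakoglobin, had fold enrichments of 9.70 and 16.1, CGN, or cingulin, 5.37 and 7.48, and GRHL1, a factor of epidermal barrier genes, 8.84 and 12.5. ITGB4, the beta subunit of the hemidesmosome integrin, had the lowest value of the list in replicate 1, at 3.81, with 6.57 in replicate 2. The label of the cells was checked against defining genes, CpG-rich or not. Of 12 epithelial markers 11 had no promoter peak in either replicate, KRT18 being the exception, and of 12 mesenchymal markers 9 had a peak in both replicates and 3 had none, beside 40.9% without a peak over all protein-coding promoters. Only 2 of the epithelial and 4 of the mesenchymal markers were CpG-rich. Promoters poorer in CpG lacked a peak more often than the 40.9% over all. At the level of promoter peaks these epithelial markers went against the epithelial label, so the line is called by its name here. In the wider epithelial list, 11 of 23 CpG-rich promoters had a peak in both replicates. The part of the marker result in the share of the epithelial list was not tested.

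Of the 7 CpG-rich promoters of mesenchymal genes none was a member, which allows a share of up to 35.4% by the Wilson interval and does not separate the list from the 18.0% of all CpG-rich promoters. SNAI1 had a peak in replicate 2 alone. CDH2, COL5A1, TWIST1, TWIST2, FBN1 and ZEB1 had a peak in both. Lung and airway lineage genes had 2 members of 9, AQP5, a water channel, and FOXA2, a factor of foregut endoderm. The nearest peak was 102 kb away from FOXA2 in replicate 1 and 99.6 kb in replicate 2.

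Germline genes had the second highest share. No peak was found at 10 of 13 promoters, 76.9% (49.7 to 91.8), and the same count held in either replicate alone. The members were TDRD10, TDRD9, TDRD6, PIWIL1, MOV10L1 and FKBP6, which act on small RNAs or transposons in germ cells or are related to genes that do, MEIOC, MEIOB and SMC1B, which act in meiosis, and DMRT1, a factor of the testis. Their median GC, 66.4%, was lower than that of the members as a whole, 70.8%. PIWIL1 was 308 kb from the nearest peak in both replicates. Its window has 1 near-copy elsewhere in hg38, however, and that of FKBP6 has 2. NANOS1, SYCP2 and RAD21L1 had a peak in both replicates. The count was sensitive to the CpG limit, because with a minimum of 100 CpG it was 1 of 4.

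Genes known for promoter methylation in lung cancer had no peak at 11 of 26 promoters (42.3%, 25.5 to 61.1), and the list shares genes with the factors above, HOXD13, SOX17 and GATA5 among them. RUNX3 with 136 CpG, GATA5 with 119 and PRKCB with 117 led it. RASSF1 had no peak at its canonical start and had a peak 3.37 kb away at another start, with fold enrichments of 5.89 and 8.28. Methylation was not measured, and whether it was present at these promoters was not tested.

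Housekeeping genes had no peak at 12 of 87 CpG-rich promoters, 13.8% (8.07 to 22.6), near the 18.0% of all CpG-rich promoters. In replicate 1 alone the share was 21.8%. The 12 were RPS2, RPS15, RPL7A and RPL36 of the cytosolic ribosome, MRPL23, MRPL20 and MRPL21 of the mitochondrial ribosome, POLR2L of RNA polymerase, LSM7 of the spliceosome, and CDT1, POLA2 and POLE2 of DNA replication. Such genes are in use in dividing cells. RPL7A was just outside the limit, with a peak of replicate 2 at 1.02 kb, and POLR2L had peaks at 1.55 kb and 1.45 kb. RPL36 had a strong peak at another start, 9.27 kb away, with fold enrichments of 9.53 and 13.6. RPS15 lay 30.8 kb from the nearest peak in both replicates, LSM7 59.1 kb and 57.6 kb, and MRPL21 105 kb in both.

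Other promoters of genes used in most cells were also members, and those named in this paragraph, apart from CREBBP, were chosen after their values were seen. EEF2, the translation elongation factor, had 92 CpG and its nearest peak at 14.1 kb in both replicates. PCBP1, an RNA-binding protein, had 98 CpG and its nearest peak at 54.6 kb and 54.7 kb. CREBBP, a histone acetyltransferase, had 156 CpG and its nearest peak at 58.7 kb and 58.6 kb. RNA was not analysed here, so the use of these genes in B2B cells was not measured.

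The lists of proteasome subunits and of replication-dependent histone genes had no member, with 0 of 4 and 0 of 7. KRAB and C2H2 zinc finger genes had 20 of 153 (13.1%, 8.62 to 19.3), of which ZNF512B, ZNF618 and ZNF853 had the highest CpG counts. The oncogenes of the study had 38 of 327 (11.6%, 8.58 to 15.5). CREBBP, PTPRT with 140 CpG, STAT5B with 139, BCL7A with 136, RET and GAS7 with 134 led this list. STAT5B, a signal transducer of cytokine receptors, was 112 kb from the nearest peak in both replicates. A gene may stand in several lists.

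The CpG count itself did not separate members from open promoters. The median was 101 CpG in members and 100 in promoters with a peak in both replicates, and the share without a peak lay between 16% and 20.3% in every class of CpG count. The 10 members of the highest count were NAT8L and SALL3 with 171, ADCY9, CACNA1H and NACC2 with 166, CSNK1G2 with 162, DIP2C, EBF4 and SHISA6 with 161 and HCN2 with 160. Of these, DIP2C had a peak at another start 360 kb away, with fold enrichments of 11.6 and 13.6.

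GC content did differ. Members had a median of 70.8% GC over 1 kb against 69.1% for promoters open in both replicates. The share without a peak was 13.7% (11.8 to 15.8) at 60 to 65% GC, 14.7% (13.4 to 16.1) at 65 to 70%, 20.5% (18.9 to 22.2) at 70 to 75% and 26.0% (23.3 to 29.0) at 75 to 80%. The GC of the surrounding 100 kb gave a wider range. There the share was 10.6% both below 40% GC and at 40 to 45%, 20.8% at 45 to 50%, 26.7% at 50 to 55% and 29.1% at 55 to 60%. The ratio of observed to expected CpG was slightly lower in members, with a median of 0.840 against 0.865.

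Where a peak was present in both replicates, its strength also fell with GC. Median fold enrichment went from 9.01 in replicate 1 and 10.6 in replicate 2 at 60 to 65% GC to 7.32 and 8.16 at 75 to 80%. In the surrounding 100 kb it went from 10.5 and 10.9 below 40% GC to 6.93 and 7.88 at 55 to 60%. The part of GC in the lack of peaks was not tested. Median GC was 67.4% in HOX members, 66.4% in germline members, 68.9% in T-box members and 71.5% in neuronal members, the 4 lists with the highest shares, against 71.1% in members outside the lists.

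**Figure D3:**
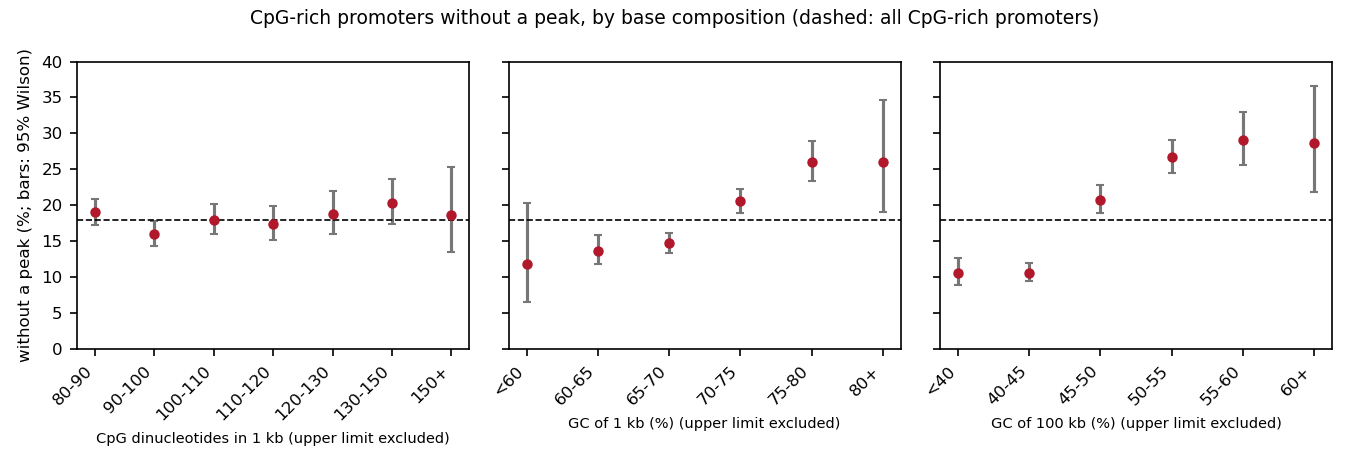
Share of CpG-rich promoters without a peak in either replicate (y axis, percent, with 95% Wilson intervals) by CpG count, by GC over 1 kb and by GC over 100 kb (x axes), with 18.0% as the dashed line. The share stays between 16% and 20.3% over the CpG classes but runs from 10.6% to 29.1% over the GC classes of the surroundings.

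The length of the CpG-dense stretch was related to the share at both ends. Stretches under 1000 bp had no peak in 28.8% (25.3 to 32.6), those of 1500 to 2000 bp in 14.3% (12.9 to 15.9), and those of 3000 to 4000 bp in 28.0% (22.1 to 34.7). Members had a stretch of 2 kb or more in 24.5% (22.3 to 27.0) against 18.8% (17.8 to 19.9) for promoters open in both replicates. Among developmental factors the median stretch was 2230 bp without a peak and 2310 bp with a peak in both replicates, so long stretches did not set the factor members apart. That of NKX6-2 spanned 5350 bp and that of SALL3 3180 bp.

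Motifs of common promoter activators were rarer in members. Both strands were searched, from 500 bp before to 500 bp after the start. The ETS motif, CCGGAAGT, was in 2.77% of members (2.01 to 3.81), in 7.30% of promoters with a peak in 1 replicate and in 9.40% (8.65 to 10.2) of those with a peak in both. It was in 7.96% of all protein-coding promoters. The difference was seen on either side of 70% GC, with 4.30% against 11.4% below and 1.62% against 6.72% above. Among 581 CpG-rich promoters that held this motif, 36 had no peak (6.2%, 4.51 to 8.46). FAM83H, TYMP and TSR3 were the members with this motif and the highest CpG count.

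The motifs of NRF1, BANP, YY1 and NF-Y were also rarer in members. NRF1 (TGCGCATGC) was in 1.38% of members (0.878 to 2.18) and 3.82% (3.34 to 4.37) of promoters open in both replicates. BANP (TCTCGCGA) was in 1.62% and 3.73%, YY1 (AAGATGGCG) in 3.08% and 5.76%, and NF-Y (AGCCAAT) in 7.54% and 12.9%. In all protein-coding promoters, the shares were 2.81%, 2.41%, 4.37% and 13.5%. In promoters with a peak in 1 replicate, NRF1 was at 3.38%, BANP at 2.67%, YY1 at 4.63% and NF-Y at 6.76%. The intervals of all 4 overlapped those of members there. Split at 70% GC, each of the 4 was lower in members on both sides, but with overlapping intervals for NRF1 (2.69% and 4.94%) and YY1 (3.41% and 5.99%) below 70% and for BANP (1.08% and 2.43%) at or above it. In the narrower window of 250 bases before to 50 after the start, the intervals for YY1 (2.46% and 3.54%) also overlapped. Members with NRF1 included DOC2B, POU4F1 and MAP7D2, and those with YY1 KMT5B, CREBBP and ZFX.

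These 5 motifs were grouped after their shares were seen, so the next values describe the group. At least 1 of them was in 14.9% of members (13.1 to 17.0), 22.2% of promoters with a peak in 1 replicate and 30.8% (29.6 to 32.1) of those with a peak in both. Read the other way, 21.1% of CpG-rich promoters with none of the 5 had no peak, 10.4% of those with 1 and 6.06% (3.76 to 9.62) of those with 2 or more. Below 70% GC these shares were 17.3%, 8.36% and 6.52%, and at or above it they were 24.8%, 13.9% and 5.0%.

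For the other motifs the intervals of members and open promoters overlapped. SP1 and KLF (GGGGCGGGG) was in 59.2% of members and 58.4% of promoters open in both replicates, beside 35.1% of all protein-coding promoters. REST (GGACAGCGC), the motif of a repressor of neuronal genes, was in 3.54% and 3.77%, and TEAD (CATTCCA) in 5.15% and 4.66%. AP-1 (TGANTCA) was in 6.38% (5.18 to 7.85) and 8.04% (7.34 to 8.80), and in 15.3% of all promoters. CRE (TGACGTCA), E2F (TTTCCCGC), RFX (GTTGCCATG) and GRHL (AACCGGTT) did not stand apart either. GRHL was in 4 members in all, among them OVOL1. A TATA box (TATAAA on the strand of the gene, 20 to 40 bases before the TSS) was in 2.62% (1.88 to 3.63) of members and 1.60% (1.30 to 1.98) of open promoters. Below 70% GC the intervals lay apart, with 3.94% (2.62 to 5.90) in members and 1.90% (1.47 to 2.44) in open promoters. At or above 70% GC they overlapped, at 1.62% and 1.21%. NAT8L and SALL3 held a TATA box.

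**Figure D4:**
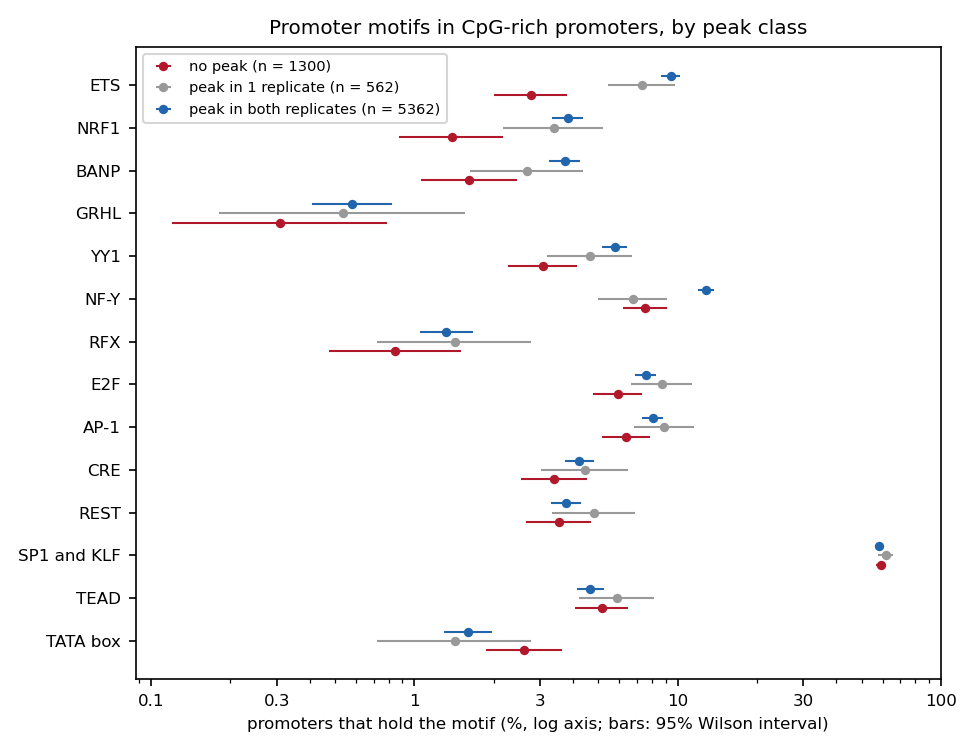
Share of CpG-rich promoters that hold each motif (x axis, percent, log axis) for promoters with no peak in red, a peak in 1 replicate in grey and a peak in both replicates in blue, with 95% Wilson intervals. The red points for ETS, NRF1, BANP, YY1 and NF-Y lie to the left of the blue ones without overlap of the intervals, whereas those for SP1 and KLF, REST and TEAD overlap.

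Divergent promoters were uncommon among members. A protein-coding start on the opposite strand within the 1 kb upstream was found at 3.31% of members (2.46 to 4.43) and 12.7% (11.8 to 13.6) of promoters with a peak in both replicates. With genes of any type the shares were 14.2% and 29.7%. The neighbouring start lay inside the window that had to be without a peak, so a peak there also kept a gene out. These shares therefore depend in part on the selection. Of the 778 CpG-rich promoters with such a protein-coding neighbour, 43 had no peak (5.53%), against 19.5% of the others. The share was 5.47% below 70% GC and 5.64% at or above it. TSR3 and GNPTG, and likewise MRPL21 and IGHMBP2, are pairs in which both genes were members, and GNPTG and IGHMBP2 are named because they stand in the runs below.

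Members were also shorter genes with fewer starts. Their median span was 34.1 kb against 44.6 kb, and they had a median of 5 annotated starts against 7. A canonical transcript of 1 exon was found for 4.23% (3.26 to 5.47) against 2.41% (2.03 to 2.85). The member of the widest span reached 1552 kb.

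The surroundings of the members held few peaks. The median distance from the TSS to the nearest peak was 42.1 kb in replicate 1 and 31.9 kb in replicate 2. Within 100 kb the median number of peaks was 2 and 3, against 4 and 5 around promoters open in both replicates, whose own peak is in that count. No peak of either replicate lay within 100 kb for 239 members, 18.4% (16.4 to 20.6). The farthest were GALNT17, 1551 kb from any peak, TAFA5, MDGA2, CNTN4 and PRKX, all beyond 1000 kb. GALNT17 encodes a glycosyltransferase, and MDGA2 and CNTN4 encode adhesion molecules of neurons.

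The flanks of members were compared with those of open promoters in bins of 1 kb. In the bin from 1 to 2 kb downstream, into which promoter peaks can extend, 7.12% of promoters open in both replicates had a peak in replicate 1 and 8.36% in replicate 2. That bin was left out of the next values, a choice made after the values were seen. From 2 to 5 kb downstream, an average of 1.08% of members per bin had a peak in replicate 1 and 1.79% in replicate 2, against 1.42% and 1.90% of open promoters. From 5 to 2 kb upstream the averages were 2.28% and 3.0% in members and 1.61% and 2.03% in open promoters. These differences were not tested.

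**Figure D5:**
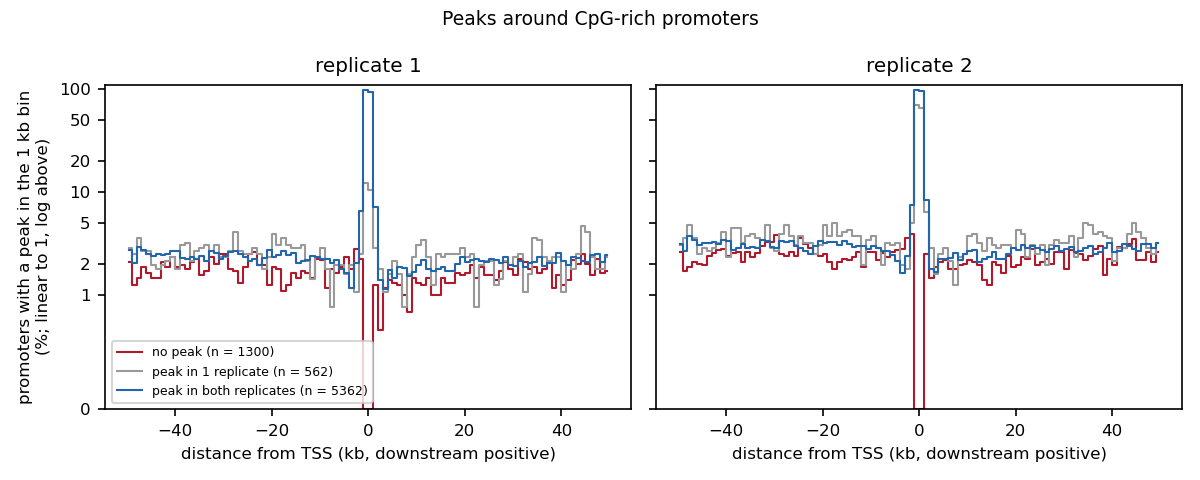
Share of promoters with a peak in each 1 kb bin (y axis, percent, linear to 1 and log above) by distance from the TSS (x axis, kb), for each replicate and peak class. The red line is at 0 in the bins next to the TSS, where the selection put it, and the blue line is still raised from 1 to 2 kb downstream, at 7.12% and 8.36%. From 2 to 5 kb downstream the red line averages 1.08% and 1.79% and the blue line 1.42% and 1.90%. From 5 to 2 kb upstream the red line averages 2.28% and 3.0% and the blue line 1.61% and 2.03%.

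A minority of members were open elsewhere in the gene. A peak anywhere in the gene body was found for 310 members in replicate 1 (23.8%) and 407 in replicate 2 (31.3%), or 419 in either (32.2%, 29.7 to 34.8). A peak within 1 kb of another annotated start was found for 163 in either replicate (12.5%, 10.8 to 14.4) and 110 in both. For promoters open in both replicates the shares in either replicate were 98.9% and 86.4%, but their own promoter peak can count in both. The other starts of members lay a median of 17.5 kb from the canonical one in replicate 1 and 17.8 kb in replicate 2. By mean fold enrichment the strongest were those of SLC37A1, with 18.0 and 22.7 at a start 17.8 kb away, and of DAB1, an adaptor of neuronal migration, with 20.2 and 19.1. GPI, a glycolytic enzyme, followed with 10.6 and 16.2 at 5.72 kb, and its promoter window has 1 near-copy. These 3 genes were chosen after their values were seen. For such genes the lack of a peak belongs to the canonical start and not to the gene.

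Some members lay next to each other. Ordered along the chromosome among CpG-rich genes, 263 members (20.2%) stood in 73 unbroken runs of 3 or more, and 61 in 10 runs of 5 or more. The share that members placed at random would reach was not computed, so clustering was not tested. Genes poor in CpG were passed over in this order. Another CpG-rich start lay within 1 kb for 76 members, and each gene counted on its own, as with CERS1 and GDF1, which share a start. The longest run had 9 genes on chromosome 11, from GAL to FADD over 1519 kb, and included CPT1A, MRPL21, IGHMBP2, FGF19, FGF4, FGF3 and ANO1. It held 9 peaks in replicate 1 and 14 in replicate 2, so the chromatin between these promoters was not without peaks. The second, of 8 genes on chromosome 16, ran over 444 kb from LMF1 to UNKL and included SOX8, CACNA1H, BAIAP3, TSR3 and GNPTG. It held 1 peak and 3 peaks, and the 100 kb around its genes had a median of 59.6% GC.

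Another run held the family of alpha globin genes. RHBDF1, MPG, HBM, HBA2, HBA1 and HBQ1, with the alpha globin genes, spanned 108 kb of chromosome 16 and held 2 and 3 peaks. The windows of HBA1 and HBA2 are near-copies of each other. RAMP2, WNK4, PSME3, PTGES3L-AARSD1, RUNDC1 and VAT1 spanned 261 kb of chromosome 17 with 2 peaks in each replicate. The runs from NKX6-2 to UTF1 on chromosome 10 and from R3HDM4 to GRIN3B on chromosome 19 held 0 peaks in both replicates. Runs of 5 were also found from EPB41L3 to LAMA1 on chromosome 18 and from TUBA8 to FAM246C on chromosome 22.

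By chromosome, the share of CpG-rich promoters without a peak ran from 8.71% (6.05 to 12.4) on chromosome 6 to 34.5% (28.3 to 41.2) on chromosome 22. Chromosome X had 30.2% (24.1 to 37.0) and chromosome 19 had 29.5% (25.2 to 34.1). Across the 23 chromosomes the share had a Spearman correlation of 0.67 with the median GC of the windows, as a description over chromosomes that share both libraries. Close to the chromosome ends the share was higher, with 25.1% (22.2 to 28.2) within 2 Mb and 15.5% (14.4 to 16.6) beyond 20 Mb.

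Sequence copies touched few members. A window with a copy elsewhere in hg38, at 95% identity or more over 90% of its length, was found for 65 members (5.0%, 3.94 to 6.32) and for 3.64% (3.17 to 4.17) of promoters open in both replicates. Reads of such windows can be placed in either copy, and how the authors treated them is not given in the sources used here. Of the 65, 58 had 1 copy. They included ASMTL, AKAP17A, DHRSX, SHOX and ZBED1 on chromosome X, and DGCR6, HIC2 and SMARCB1 on chromosome 22. The search took every sequence of the hg38 reference used, and the place of each copy was not recorded. A matching stretch of chromosome Y, or an alternate version of the same locus where present, would thus count as a copy. The shares by chromosome were not recomputed without such windows. Without windows that have copies, the ETS motif was in 2.43% of members and 9.31% of promoters open in both replicates.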

How the data were processed

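ATAC-seq of 2 biological replicates of untreated B2B cells was analysed from peak lists. Per the methods and labels, the authors aligned reads to hg38 with Bowtie2 2.4.4, removed duplicates with their own script, and called peaks for each replicate with MACS2 2.2.7.1, SAMtools 1.13 also being used. The deposited values are the fold enrichment at the summit, a ratio to local background, and the −log10 p-value and q-value. The q limit, the shift of Tn5 cut sites and read totals are not given in the sources used here.

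Canonical transcripts came from GENCODE 44 on hg38, and CpG, GC, motifs and promoter copies were read from that genome (minimap2 2.31). A peak counted from an overlap of 1 bp. Summit fragments were solved from fold enrichment and p-value with a tolerance of 0.01, which gave whole numbers for 99.7% and 99.8% of peaks. Overlap, distance, motif and fragment steps were tested on simulated data and recovered all of 1500, 1500, 520 and 958 planted cases. A CpG-dense stretch had GC over 50% and observed over expected CpG over 0.6 in 200 bp windows. Intervals are 95% Wilson intervals over promoters, which are not replicates, and cover counting error only. No p-value was computed, because there is 1 group.

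Named genes are the 6 of highest CpG count per list, all epithelial and housekeeping members, the 10 of highest CpG count, the 5 nearest each limit and the 5 farthest from a peak, the 10 longest runs and up to 3 holders per motif. Sequences were taken for up to 2 promoters per list and 2 open housekeeping promoters, and some of these genes and sequences are not reported here. The members and lists were chosen with earlier results of these data known. Alternatives were a stricter q-value, equal numbers of peaks, other windows and CpG limits, any annotated start, the summit in place of the peak, and each replicate alone.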

Additional observations from a re-analysis of the deposited data

How the results depend on the processing

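Of the recomputed values, 59 stayed within a set limit and 23 did not. The limit was the spread between replicates, the counting interval or, for the number of promoters, a fixed ratio to the main value. The number of promoters without a peak was 2136 with a CpG minimum of 60 and 694 with one of 100, and lay between 1137 and 1540 under the settings that kept the CpG limit and both replicates. Each replicate alone gave 1385 to 1777 promoters, or 19.2 to 24.6%. The lists then ran from 57.4 to 59.8% for developmental factors, 65.6 to 71.9% for neuronal genes, 47.8 to 52.2% for epithelial genes, 13.8 to 21.8% for housekeeping genes and 76.9% in both for germline genes. With replicate 1 alone, the share of members with a peak in the gene body was 25.3% and the median distance to a peak 36.0 kb, against 31.8% and 31.4 kb with replicate 2 alone. Developmental factors had 54.4% with a 3 kb window, 58.2% with a CpG minimum of 60 and 52.5% with 100. Neuronal genes had 68.1% with equal numbers of peaks and 53.8% when a peak at any annotated start counted. Epithelial genes had 52.2% with equal numbers of peaks, 43.5% with a 3 kb window, 53.3% with a CpG minimum of 60 and 34.8% with any annotated start. Germline genes had 75% with a CpG minimum of 60, 25% with 100 (1 of 4 promoters) and 69.2% with any annotated start. At least 1 of the 5 motifs was in 10.5% of members when 250 bases before to 50 after the start were searched, and runs of 5 or more held 4.69% of members. The causes of these shifts were not tested. The detection level limits the lists, since no peak under 16 fragments in replicate 1 or 13 in replicate 2 was called. No paired analysis was possible because there is 1 group.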
